A study of Saccharomyces cerevisiae with 4 samples.

Results

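The methionine and S-adenosylmethionine cycle was followed in budding yeast (Saccharomyces cerevisiae) through 10 genes, chosen by name for their place in the pathway: SAM1, SAM2, SAM3, SAM4, MET6, MET13, SAH1, MHT1, MUP1 and ADO1. The choice was made with earlier results of these data known, so shares of called genes describe these 10 and do not test the pathway. Each of the 10 had a single probe with 1 gene in the annotation, and all 10 were among the 5403 genes measured on every array, out of 5477 genes with such a probe. In the heat shock experiments (2 arrays), total RNA after 30 min at 39 °C was set against that of a control kept for 30 min at 30 °C. In the drug experiments (2 arrays), cells were exposed for 1 h to celastrol, a plant triterpenoid, at 10 µM in DMSO, and their controls to DMSO alone in an equal volume for 1 h. The sources used here name no strain, medium or growth phase, so whether methionine was supplied to the cells is not known.

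S-adenosylmethionine is the methyl donor of most methylation reactions in the cell, including those that make phosphatidylcholine, ergosterol and the modified bases of RNA. Each transfer leaves S-adenosylhomocysteine, which is split into homocysteine and adenosine. Homocysteine is methylated back to methionine, and methionine is joined to the adenosyl group of ATP to close the cycle. In yeast the genes of methionine synthesis are known as targets of the activator Met4, which is held in check when methionine or S-adenosylmethionine is plentiful.

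Each array gave 1 log2 ratio per gene, treated over control, and a mean is given with its SD over 2 arrays. A gene was called where limma's Benjamini-Hochberg adjusted p over all 5403 genes was under 0.05, and "fell" or "rose" is used of called genes only. Over all genes the array medians lay between −0.14 and 0.04, and the SD over genes was 0.91 and 0.59 for heat shock replicates 1 and 2 and 0.59 and 0.79 for celastrol. The ratios are relative to other transcripts of the same sample, and in whole cultures fewer cells carrying a transcript and less of it per cell cannot be told apart.

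After heat shock 6 of the 10 genes fell and 0 rose: SAM1 and SAM2, which encode S-adenosylmethionine synthetases, SAH1 and ADO1, which take S-adenosylhomocysteine and its adenosine onward, SAM4, for a homocysteine methyltransferase, and SAM3, for the S-adenosylmethionine permease. Among all genes tested 4.79% were called lower and 4.28% higher in that comparison. The median of the 10 mean ratios was −1.04, beside 0.00 over all genes. Both heat shock arrays were below 0 for 9 of the 10, which held for 36.7% of all genes. After celastrol 1 of the 10 fell, SAM3, where 2.68% of all genes were called lower, and 0 rose, where 3.85% were called higher. Both celastrol arrays were below 0 for 5 of the 10, which held for 49.6% of all genes, and the median of the 10 means was −0.22, beside −0.11 over all genes.

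**Figure D1:**
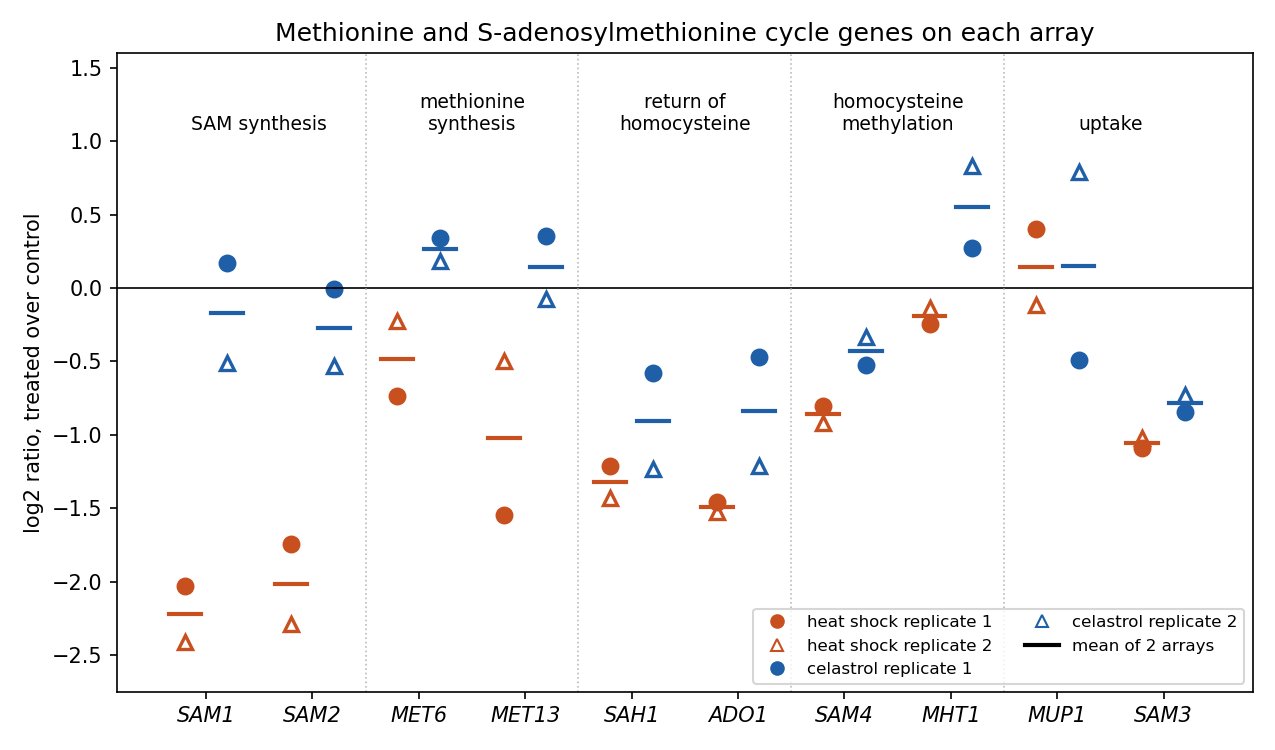
Log2 ratio of treated over control (vertical axis) for each of the 10 cycle genes, grouped by role, with 1 symbol per array and a bar at the mean of 2 arrays. SAM1 and SAM2 lie between −2.41 and −1.75 on the heat shock arrays and between −0.53 and 0.17 on the celastrol arrays, the widest gap between treatments among the 10 genes.

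SAM1 (YLR180W) and SAM2 (YDR502C) encode near-identical S-adenosylmethionine synthetases, which make the methyl donor from methionine and ATP. SAM1 stood at −2.03 and −2.41 on heat shock replicates 1 and 2 and at 0.17 and −0.51 on celastrol replicates 1 and 2. SAM2 stood at −1.75 and −2.29 on the heat arrays and at −0.01 and −0.53 on the drug arrays. For both genes the heat shock arrays were far below the celastrol arrays, by 1.52 log2 units for SAM1 and 1.21 for SAM2 between the nearest arrays, and the celastrol arrays lay near 0 or modestly below it.

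The mean after heat shock was −2.22 ± 0.27 for SAM1 (SD, n = 2 arrays; limma adjusted p = 0.0133), a level of 21.5% of the control. For SAM2 it was −2.02 ± 0.38 (SD, n = 2; limma adjusted p = 0.0159), or 24.7% of the control. On heat shock replicate 2, SAM1 was the lowest of all 5403 genes and SAM2 ranked 4 from the bottom. On replicate 1, whose ratios were more widely spread, they ranked 219 and 285 from the bottom. By the mean of both arrays SAM1 ranked 7 and SAM2 ranked 26.

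After celastrol the means were −0.17 ± 0.48 for SAM1 and −0.27 ± 0.37 for SAM2 (SD, n = 2), and neither was called (limma adjusted p = 0.658 and 0.47). The 95% interval ran from −0.75 to 0.41 for SAM1 and from −0.84 to 0.30 for SAM2. The sign for SAM1 after celastrol differed between its arrays, and without replicate 2 the value was 0.17. The SAM1 and SAM2 ratios differed from each other by 0.28, 0.12, 0.18 and 0.02 log2 units on heat shock replicates 1 and 2 and celastrol replicates 1 and 2, and of all genes SAM2 had the pattern nearest to that of SAM1. Transcripts of near-identical copies can hybridise to each other's probes, so the 2 ratios may not be separate measurements, and the part of cross-hybridisation in them was not tested.

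SAH1 (YER043C) encodes S-adenosylhomocysteine hydrolase, which splits the spent methyl donor, and ADO1 (YJR105W) encodes adenosine kinase, which phosphorylates the adenosine that this reaction frees. SAH1 gave −1.21 and −1.43 with heat, and −0.58 and −1.23 with celastrol. ADO1 gave −1.46 and −1.52 with heat, and −0.47 and −1.21 with celastrol. The heat shock arrays differed by 0.22 for SAH1 and 0.07 for ADO1, while on celastrol replicate 2 both ratios came near the heat shock values, so that SAH1 overlapped between the treatments and ADO1 did not by 0.25.

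SAH1 fell after heat shock to 40.0% of its control (mean −1.32 ± 0.15, SD, n = 2; limma adjusted p = 0.0293) and ADO1 to 35.6% (−1.49 ± 0.05, SD, n = 2; limma adjusted p = 0.0242). After celastrol SAH1 averaged −0.90 ± 0.46 and ADO1 −0.84 ± 0.52 (SD, n = 2), with limma adjusted p = 0.0681 and 0.0836, and neither was called. With the celastrol arrays fitted alone both celastrol means were called (limma adjusted p = 0.0137 for SAH1 and 0.0215 for ADO1). In that fit, in which the residual spread comes from the celastrol arrays, 1522 genes were called after celastrol. With quantile normalization SAH1 was called (adjusted p = 0.0432) and ADO1 was not (adjusted p = 0.061). Neither was called with centred arrays (adjusted p = 0.084 and 0.107) or with a term for the replicate number in the fit (adjusted p = 0.129 and 0.147). The gap between the celastrol arrays was wider than for 89.1% of all genes for SAH1 and 91.9% for ADO1. These 2 genes followed each other on every array to within 0.25 log2 units, and ADO1 had the third nearest pattern to SAH1 among all genes. The likeness was not particular to the pair: TOS2 and POL30 were nearer to SAH1 than ADO1 was. POL30, SES1 and RPS11A were nearer to ADO1 than SAH1 was.

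SAH1, ADO1, SAM2, SAM3 and SAM4 were below 0 on all 4 arrays, as were 27.4% of all genes. A mean of −1 or less over all 4 arrays was shared by SAH1, ADO1 and SAM2, and by 6.61% of all genes. Treated RNA was labelled with Cy5 and control RNA with Cy3 on every array, so for a probe low on all 4 arrays an effect of dye and an effect of treatment cannot be told apart.

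SAM3 (YPL274W), for the high-affinity S-adenosylmethionine permease of the plasma membrane, and MUP1 (YGR055W), for the high-affinity methionine permease, bring the substrates of the cycle into the cell. SAM3 gave −1.09 and −1.02 with heat, and −0.84 and −0.73 with celastrol, a narrow range on all 4 arrays. MUP1 gave 0.40 and −0.12 with heat, and −0.49 and 0.79 with celastrol, so its arrays disagreed in sign within both treatments.

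SAM3 fell to 48.1% of its control after heat shock (−1.06 ± 0.05, SD, n = 2; limma adjusted p = 0.0226). It fell to 58.1% after celastrol (−0.78 ± 0.08, SD, n = 2; limma adjusted p = 0.0493). The celastrol call stood just inside the threshold and was lost with each array centred on its median (−0.67, limma adjusted p = 0.0712) and with exact zeros kept as values (adjusted p = 0.0524). It was also lost with a robust prior (adjusted p = 0.0504) and with a term for the replicate number in the fit (adjusted p = 0.138). Without either celastrol array it was lost too, at −0.73 without replicate 1 and −0.84 without replicate 2. For MUP1 the means were 0.14 ± 0.37 and 0.15 ± 0.91 (SD, n = 2), neither called (limma adjusted p = 0.801 and 0.811). The MUP1 gap of 1.28 between the celastrol arrays was wider than that of 98.5% of all genes, and the 95% interval after celastrol reached from −0.72 to 1.02.

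SAM4 (YPL273W) and MHT1 (YLL062C) encode related homocysteine methyltransferases that make methionine without folate, SAM4 with S-adenosylmethionine as the methyl donor and MHT1 with S-methylmethionine. SAM4 gave −0.80 and −0.92 with heat, and −0.53 and −0.33 with celastrol. MHT1 gave −0.25 and −0.13 with heat, and 0.27 and 0.83 with celastrol. SAM4 was below 0 on all 4 arrays, whereas MHT1 was slightly below 0 after heat shock and above 0 on both celastrol arrays, as were 29% of all genes.

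SAM4 fell after heat shock to 55.1% of its control (−0.86 ± 0.08, SD, n = 2; limma adjusted p = 0.0381), and without heat shock replicate 1 the call was lost (−0.92, limma adjusted p = 0.0569). Its celastrol mean of −0.43 ± 0.14 (SD, n = 2) was not called (limma adjusted p = 0.141). MHT1 averaged −0.19 ± 0.08 after heat shock and 0.55 ± 0.40 after celastrol (SD, n = 2), with limma adjusted p = 0.537 and 0.134. In the RefSeq annotation SAM3 and SAM4 are neighbouring genes, and MHT1 lies beside MMP1, for the S-methylmethionine permease. The neighbours SAM3 and SAM4 were both called lower after heat shock, while MMP1, at −0.41 ± 0.07 after heat shock and −0.25 ± 0.08 after celastrol (SD, n = 2), was not called (limma adjusted p = 0.149 and 0.328).

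MET6 (YER091C) encodes the methionine synthase that needs no cobalamin and methylates homocysteine with a folate-bound methyl group. MET13 (YGL125W) encodes a methylenetetrahydrofolate reductase, which prepares that methyl group. MET6 gave −0.74 and −0.22 with heat, and 0.34 and 0.19 with celastrol. MET13 gave −1.54 and −0.50 with heat, and 0.35 and −0.07 with celastrol. Both genes were below 0 on each heat shock array, MET13 with a wide gap between them, and near or slightly above 0 after celastrol.

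Neither gene was called in either treatment. After heat shock MET6 averaged −0.48 ± 0.36 and MET13 −1.02 ± 0.74 (SD, n = 2), with limma adjusted p = 0.166 and 0.0938. The gap of 1.04 between the heat shock arrays of MET13 was wider than for 89.2% of all genes. With quantile normalization MET13 was called lower (−0.88, limma adjusted p = 0.0304), and without heat shock replicate 2 both were, MET6 at −0.74 (adjusted p = 0.0462) and MET13 at −1.54 (adjusted p = 0.00369). Without replicate 1 they were at −0.22 (adjusted p = 0.645) and −0.50 (adjusted p = 0.304). The fits without a heat shock replicate each hold a single heat shock array, assumed to vary as the celastrol arrays do. After celastrol MET6 averaged 0.26 ± 0.11 and MET13 0.14 ± 0.30 (SD, n = 2; limma adjusted p = 0.401 and 0.79). MET12, for the other methylenetetrahydrofolate reductase of yeast, stood at 0.48 and 0.50 on the heat shock arrays and was not called (limma adjusted p = 0.111).

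Ordered by their mean after heat shock from the lowest, the genes were SAM1, SAM2, ADO1, SAH1, SAM3, MET13, SAM4, MET6, MHT1 and MUP1. The ranges over 2 arrays overlapped for 4 of the 9 neighbouring pairs in this order: SAM1 with SAM2, SAM3 with MET13, MET13 with SAM4, and MET6 with MHT1. SAM2 and ADO1 stood apart by 0.22, the widest separation between neighbours. After celastrol the order was SAH1, ADO1, SAM3, SAM4, SAM2, SAM1, MET13, MUP1, MET6 and MHT1, and 8 of 9 neighbouring pairs overlapped. The exception was SAM3, whose arrays lay below those of SAM4 by 0.20. The lowest celastrol means were those of SAH1, ADO1 and SAM3, although ADO1 overlapped with SAM4, SAM2, SAM1 and MUP1.

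**Figure D2:**
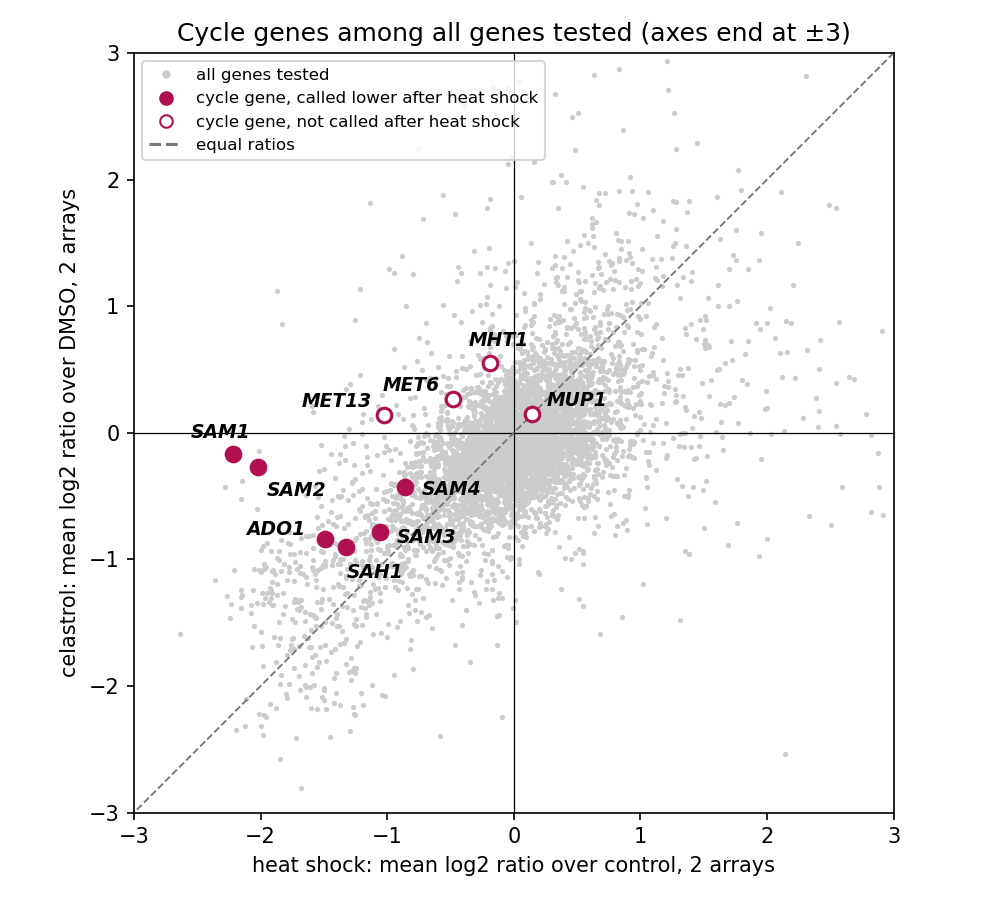
Mean log2 ratio after heat shock (horizontal axis) against mean log2 ratio after celastrol (vertical axis), each over 2 arrays, for all genes tested (grey) and the 10 cycle genes (red, filled where called lower after heat shock). All 10 lie above the dashed line of equal ratios, MUP1 by 0.01, as do 2269 of all 5403 genes. SAM1 and SAM2 lie at the left edge near 0 on the vertical axis. Axes end at 3 log2 units in each direction and leave 28 genes outside.

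The contrast of celastrol minus heat shock in that fit asks whether the response to the drug differs from that to heat. The exposure times were not matched, at 30 min of heat and 1 h of celastrol. The contrast was above 0 for all 10 genes, MUP1 at 0.01, and for 2269 of all 5403 genes. Its median was 0.70 for the 10 beside −0.09 over all genes, and 0 of the 10 were called, where 1.11% of all genes were. An unadjusted p under 0.05 was reached by 5 of the 10 and by 13.7% of all genes. Both heat shock arrays lay below both celastrol arrays for 8 of the 10 genes, all but SAH1 and MUP1, and for 18.1% of all genes.

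The difference was 2.05 ± 0.32 (SE) log2 units for SAM1 and 1.75 ± 0.32 (SE) for SAM2, which is 4.14-fold and 3.36-fold. The 95% interval, not adjusted for the number of genes, ran from 1.23 to 2.87 for SAM1 and from 0.94 to 2.55 for SAM2. Their limma adjusted p-values of 0.0665 and 0.0953 missed the threshold. Among the settings that kept all 4 arrays, SAM1 passed only with each array centred on its median (2.16, limma adjusted p = 0.0494). SAM2 passed in none of them (1.86 with centred arrays, adjusted p = 0.0684). With quantile normalization the adjusted p-values were 0.104 and 0.12, and with a term for the replicate number in the fit 0.112 and 0.156. Without 1 array the difference ran from 1.71 to 2.39 for SAM1 and from 1.48 to 2.02 for SAM2.

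For MET13 (1.16, 95% interval 0.12 to 2.21), MET6 (0.74, 0.06 to 1.43) and MHT1 (0.74, 0.04 to 1.44) the intervals also lay above 0, with limma adjusted p-values of 0.325 to 0.34. The MET13 difference was 1.68 without heat shock replicate 2 (limma adjusted p = 0.0157) and 0.64 without replicate 1 (adjusted p = 0.367). The intervals held 0 for ADO1 (0.65, −0.15 to 1.45), SAM4 (0.43, −0.13 to 0.99), SAH1 (0.42, −0.35 to 1.19), SAM3 (0.27, −0.27 to 0.82) and MUP1 (0.01, −1.22 to 1.23). For SAM3 a difference above 0.82 or below −0.27 log2 units, and for MUP1 one above 1.23 or below −1.22, lay outside the interval. Differences within the intervals could not be resolved with 2 arrays a treatment.

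**Figure D3:**
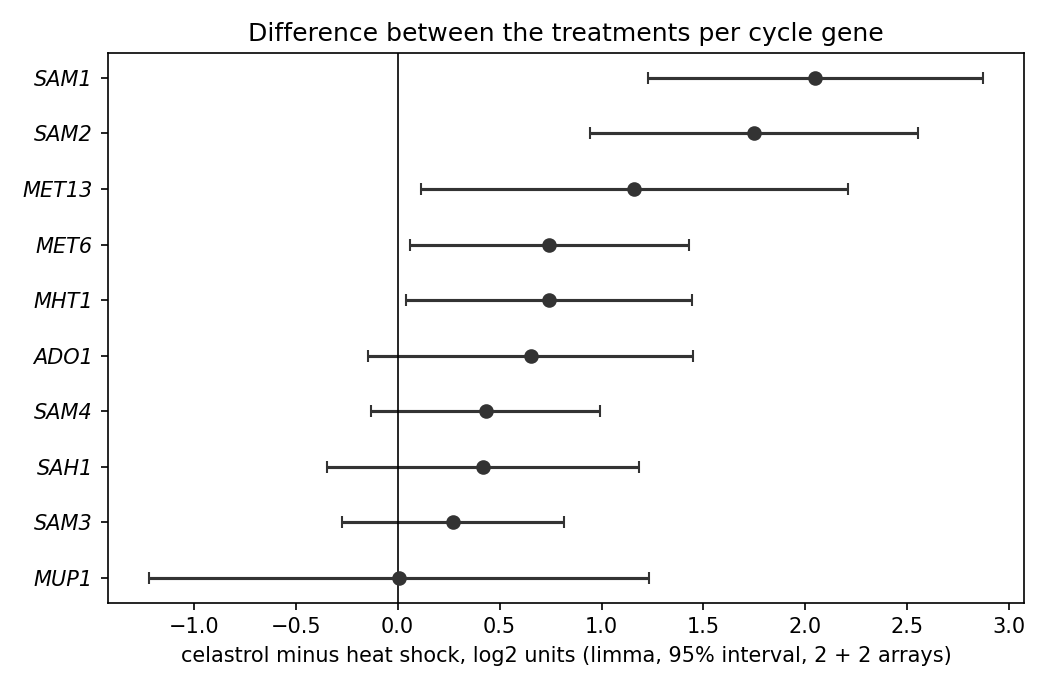
Celastrol minus heat shock for each cycle gene in log2 units (horizontal axis), with points at the limma estimate and bars for the 95% interval from 2 arrays per treatment. The intervals of SAM1, SAM2, MET13, MET6 and MHT1 lie above 0 and those of the other 5 genes hold 0, and no gene was called after adjustment over all 5403 genes.

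All heat shock calls among the 10 genes rested on the spread shared with the celastrol arrays: with the heat shock arrays fitted alone, or with either celastrol array left out, 0 of the 10 were called by limma (7 at an unadjusted p under 0.05), as were 0 of all genes (1154 at an unadjusted p under 0.05), and the 6 adjusted p-values were 0.0615 to 0.131. With centred arrays, exact zeros kept, the median of probes or a robust prior 6 were called, and with quantile normalization 7. With a term for the replicate number in the fit (replicate block) 1 was called, SAM1 (limma adjusted p = 0.0462). For the rest of the 6 the adjusted p-values were then 0.0511 to 0.115.

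Genes whose pattern over the 4 arrays was most like that of a called member were found by the root-mean-square difference of the log2 ratios. Next to SAM2, the nearest to SAM1 were QDR2, for a multidrug transporter, at 0.21 log2 units, and PRM6, a pheromone-regulated gene, at 0.35. For SAM2 they were SAM1 (0.18), QDR2 (0.24) and FIG1, another pheromone-regulated gene (0.36). QDR2, picked for its likeness on these same 4 arrays, gave −1.98 and −2.04 on the heat arrays and 0.33 and −0.62 on the drug arrays.

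The nearest to SAH1 were TOS2 (0.12), POL30 (0.12), for the replication clamp, and ADO1 (0.14). For ADO1 they were POL30 (0.07), SES1, for seryl-tRNA synthetase (0.10), and RPS11A, for a ribosomal protein (0.10). SAM3 was nearest to CAF20, for a translation inhibitor (0.09), YIL054W (0.10) and EMP70 (0.12), and SAM4 to CHO1, for phosphatidylserine synthase (0.04), RAD27, for a flap endonuclease (0.04), and SEC14, for a lipid transfer protein (0.04). The nearest gene was thus 0.18 log2 units away for SAM1 and SAM2 and 0.04 away for SAM4.

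The pathways that feed the cycle or draw on it were described through 9 lists of 66 other genes, of which 62 were tested. SUL1, SHM1 and BAT1 were without a single-gene probe in the annotation used, and CHO2 held an exact 0 on heat shock replicate 2. Of the 62 genes 8 rose and 5 fell after heat shock, with a median of 0.03, and 5 rose and 3 fell after celastrol, with a median of −0.08. Among all genes tested 4.28% were called higher and 4.79% lower after heat shock, and 3.85% and 2.68% after celastrol. Beside the cycle genes, with 6 of 10 lower and a median of −1.04, no list had a median below −0.34 after heat shock. Cycle genes and lists were chosen with earlier results of these data known, so this describes the chosen genes and is not a test.

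**Figure D4:**
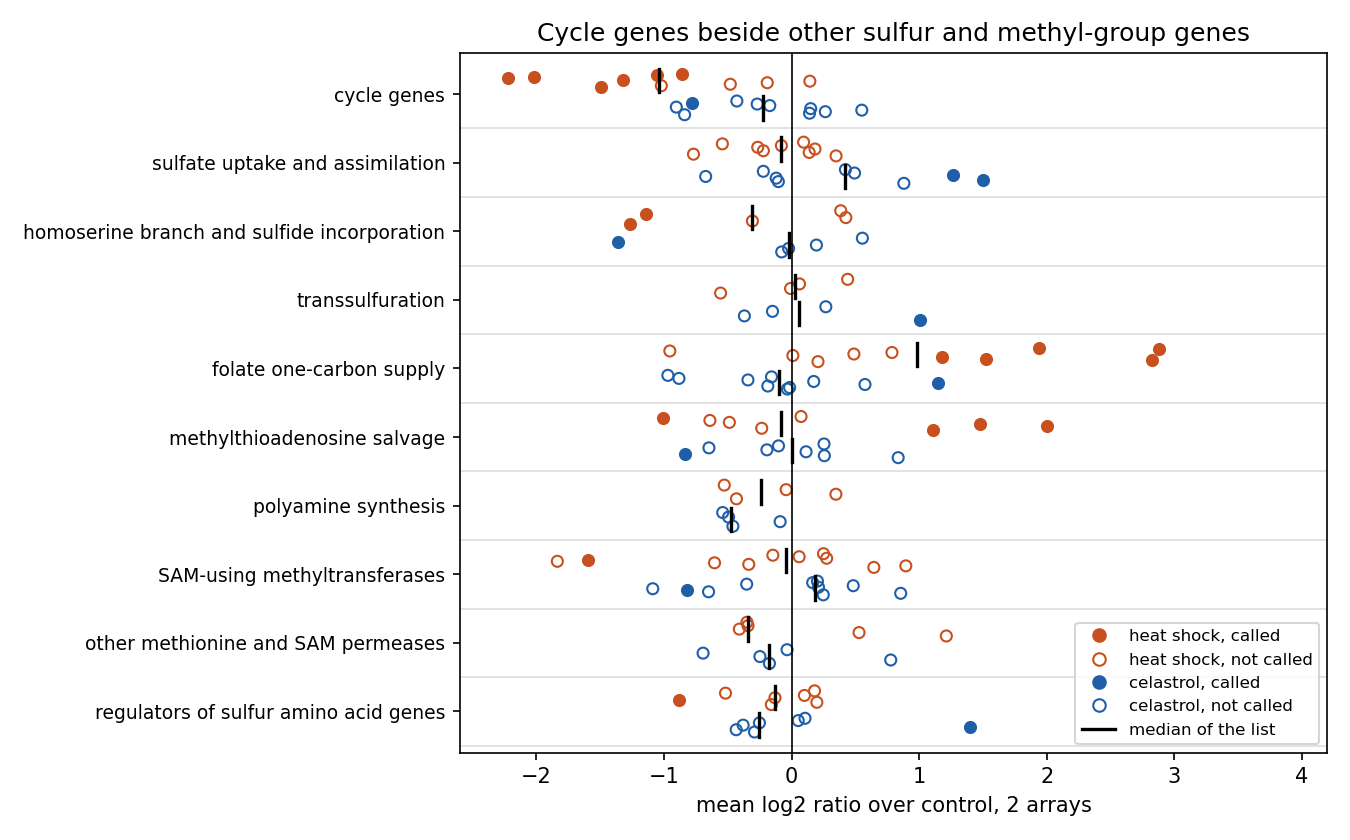
Mean log2 ratio over control (horizontal axis) of each gene in the cycle and in 9 lists of connected pathways (rows), orange for heat shock and blue for celastrol, filled where called, with a black bar at each list's median. The cycle genes have the lowest list median after heat shock (−1.04) and the genes of folate-bound carbon supply the highest (0.98), while all list medians after celastrol lie between −0.48 and 0.42.

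Of 10 genes that supply folate-bound carbon units 5 rose after heat shock, 0 fell and 5 were not called, with a median of 0.98. MTD1, for a methylenetetrahydrofolate dehydrogenase, stood at 3.16 and 2.61 on the heat shock arrays and at −0.02 and −0.30 on the celastrol arrays. The glycine cleavage gene GCV1 (2.82 ± 0.59), SHM2, for cytosolic serine hydroxymethyltransferase (1.94 ± 0.10), and the glycine cleavage genes GCV2 (1.52 ± 0.12) and GCV3 (1.18 ± 0.09; all SD, n = 2) also rose. Among those not called, MIS1, for the mitochondrial C1-tetrahydrofolate synthase, was at −0.65 and −1.26 after heat shock (limma adjusted p = 0.0515), and ADE3, for the cytosolic one, at 0.09 and 0.33. After celastrol 1 of the 10 rose, LPD1, for the lipoamide dehydrogenase shared by glycine cleavage and other complexes (1.15 ± 0.03, SD, n = 2; limma adjusted p = 0.0239). The LPD1 call was lost with a term for the replicate number in the fit (limma adjusted p = 0.0963). MET13, which acts on the same folate pool at the step before methionine synthesis, averaged −1.02 after heat shock, where the list's median was 0.98.

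In sulfate uptake and assimilation 0 of 9 genes were called after heat shock, with a median of −0.08. An unadjusted limma p under 0.05 was reached by 2 of the 9 and by 1645 of all 5403 genes. After celastrol 2 rose, MET3, for ATP sulfurylase (1.26 ± 0.14), and MET14, for the kinase of the next step (1.502 ± 0.17; all SD, n = 2), with a list median of 0.42. Among 5 genes of the homoserine branch and sulfide incorporation, HOM2, for aspartate semialdehyde dehydrogenase (−1.27 ± 0.14), and MET17, for the enzyme that incorporates sulfide (−1.14 ± 0.54; all SD, n = 2), fell after heat shock. MET17 fell after celastrol as well (−1.36 ± 0.09, SD, n = 2). Its limma adjusted p-values were 0.0453 and 0.0382, and the calls were lost with centred arrays (adjusted p = 0.0509 and 0.0506), the heat shock call also with zeros kept (adjusted p = 0.052) and without heat shock replicate 1 (−0.76, adjusted p = 0.0958). Of 4 transsulfuration genes CYS3, for cystathionine gamma-lyase, rose after celastrol (1.01 ± 0.17, SD, n = 2), and it stood at −0.56 ± 0.13 after heat shock (SD, n = 2; limma adjusted p = 0.0987). With a term for the replicate number in the fit the celastrol calls of MET3, MET14, MET17 and CYS3 were lost (limma adjusted p = 0.0814, 0.0784, 0.103 and 0.109).

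Among 7 regulators of sulfur amino acid genes 1 was called, MET28, for a cofactor of Met4, which fell after heat shock (−0.88 ± 0.10) and rose after celastrol (1.40 ± 0.16; all SD, n = 2), and MET4 itself was at 0.18 ± 0.10 and 0.11 ± 0.36 (SD, n = 2). Both calls of MET28 were lost with a term for the replicate number in the fit (limma adjusted p = 0.108 after heat shock and 0.0743 after celastrol). Without heat shock replicate 1 the heat shock call of MET28 was lost as well, at −0.81. In the salvage of methylthioadenosine, which returns sulfur to methionine, ADI1 (1.11 ± 0.12) and the aminotransferase genes ARO9 (1.9995 ± 0.07) and BAT2 (1.48 ± 0.33; all SD, n = 2) rose after heat shock, MRI1 fell (−1.01 ± 0.25, SD, n = 2), and ARO9 fell after celastrol (−0.84 ± 0.10, SD, n = 2). With centred arrays the celastrol call of ARO9 was lost (−0.72, limma adjusted p = 0.0647). ARO9 and BAT2 also serve amino acid breakdown outside this pathway.

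Of 10 methyltransferase genes that use S-adenosylmethionine, OPI3, for phosphatidylcholine synthesis, fell after heat shock (−1.60 ± 0.46), and ERG6, for a step of ergosterol synthesis, fell after celastrol (−0.82 ± 0.11; all SD, n = 2). The ERG6 call was lost with centred arrays (−0.70, limma adjusted p = 0.0613) and with zeros kept (adjusted p = 0.0501). CHO2, for the methylation before that of OPI3, was not tested, as it held an exact 0 on heat shock replicate 2. It was at −1.70 on heat shock replicate 1 and at −0.17 and −0.38 on the celastrol arrays. The list's medians were −0.04 after heat shock and 0.18 after celastrol. None of 4 polyamine genes and 5 other permease genes was called in either treatment by limma (2 and 3 at an unadjusted p under 0.05 after heat shock, 2 and 1 after celastrol). Of all 5403 genes 1645 had an unadjusted limma p under 0.05 after heat shock and 1663 after celastrol. The polyamine genes farthest from 0 in one treatment were SPE4 (−0.53 ± 0.01 after heat shock, −0.54 ± 0.05 after celastrol) and SPE3 (−0.04 ± 1.57 and −0.49 ± 0.58; all SD, n = 2). Among the permeases AGP1 was at 1.21 ± 1.26 after heat shock and AGP3 at 0.78 ± 0.03 after celastrol (SD, n = 2).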

How the data were processed

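The deposited values are 1 number per probe and array, taken as log2 ratios of treated (Cy5) over control (Cy3). Duplicate spots were averaged by the authors and scaled to each chip's median signal, per the series labels. The sources used here name no array software, background correction or spot filter, and no intensities were used, so signal over background is unknown. Base 2 was read from heat shock replicate 1, where 306 pairs of values differ by the log2 of a small whole-number ratio and 0 by its natural or decimal log, and assumed elsewhere.

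Of 6415 probes, 5619 carry 1 gene in the platform annotation (all matched to RefSeq R64), 76 several and 720 none there. Probes of a gene were averaged and exact zeros treated as missing. limma 3.58.1 (R 4.3.3; lmFit and eBayes, a mean for each treatment, all 4 arrays) gave the tests, SEs and intervals, and was tested on simulated data. The experiments were independent per the series labels, and p-values measure the spread between these arrays.

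Named genes are the 10 members, the called genes of 9 textbook lists (otherwise the pair farthest from 0), and the 3 genes nearest to each called member. MET12, MMP1, MIS1, ADE3, MET4 and CHO2 are named outside this rule and were not followed under the alternatives. Members and lists were chosen with earlier results of these data known. Alternatives were centred arrays, quantile normalization, zeros kept, each array left out, treatments fitted alone, replicate blocks, the median of probes and a robust prior. Same-numbered arrays of the treatments deviated from their means with a correlation of −0.31 across genes, so they tended to deviate in opposite directions. The main fit takes the 4 arrays as independent, and the source of this correlation was not tested. A planned search for promoter motifs was not made.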

Additional observations from a re-analysis of the deposited data

Results flagged for a closer look

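The difference between celastrol and heat shock was called for 5 genes of the connected pathways and for none of the 10 cycle genes (limma adjusted p under 0.05). Among all genes tested 1.11% were called. An unadjusted limma p under 0.05 was reached by 5 of the 10 and by 13.7% of all genes. MTD1 was lower after celastrol than after heat shock by a difference of −3.04 log2 units (means −0.16 and 2.88), SHM2 by −2.91 (−0.97 and 1.94) and GCV1 by −2.84 (−0.02 and 2.82). ARO9 differed by −2.83 (−0.84 and 1.9995). MET28 differed by 2.28 in the other direction (1.40 after celastrol and −0.88 after heat shock). For each of the 5 the arrays of the treatments did not overlap. As the genes were picked for a called difference, this adds no separate support. All 5 calls were lost without either celastrol array, and that of GCV1 with zeros kept (limma adjusted p = 0.0502).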

How the results depend on the processing

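Without 1 array, calls among the 10 genes ranged from 0 to 8 after heat shock, from 0 to 3 after celastrol and from 0 to 3 for the difference. Over all genes they ranged from 0 to 1582, from 0 to 1522 and from 0 to 575. Fitted alone, heat shock gave 0 calls by limma (1154 genes at an unadjusted p under 0.05), 0 of them members, and celastrol 1522, with 3 members. As deposited, 231 genes were called higher and 259 lower after heat shock and 208 and 145 after celastrol. With quantile normalization the calls were 989 after heat shock (360 higher, 629 lower), 1135 after celastrol (468 higher, 667 lower) and 164 for the difference, and 2 members were called after celastrol. Centring each array moved the median of all genes by 0.12 after celastrol and by 0.11 for the difference, and gave 249 higher and 92 lower calls after celastrol. Members called by limma after celastrol were 0 with centred arrays, with zeros kept and with a robust prior (4, 5 and 5 at an unadjusted p under 0.05). In those celastrol fits 1574, 1658 and 1647 of all genes had an unadjusted p under 0.05. For the difference 1 member was called with centred arrays. The replicate block left 30, 65 and 0 genes called in the 3 comparisons (1293, 1281 and 524 at an unadjusted p under 0.05), with 1, 0 and 0 members (7, 3 and 2 at an unadjusted p under 0.05). A crossed replicate block, chosen after seeing the data, gave 849 and 798 calls after heat shock and celastrol. The cause of these shifts was not tested.

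Without 1 array the sign changed for MUP1 (−0.12 to 0.40 after heat shock, −0.49 to 0.79 after celastrol, −0.63 to 0.65 for the difference), SAM1 and MET13 after celastrol (−0.51 to 0.17 and −0.073 to 0.35), and, outside the cycle, for MET14 (−0.059 to 0.33), LPD1 (−0.036 to 0.055) and SPE3 (−1.16 to 1.07) after heat shock and GCV1 (−0.037 to 0.0058), GCV2 (−0.54 to 0.17), BAT2 (−0.13 to 0.35) and QDR2 (−0.62 to 0.33) after celastrol. Near 0, LPD1 was at −0.029 after heat shock with quantile normalization, and after celastrol HOM2 (0.039), GCV1 (0.10) and MRI1 (0.014) turned with centred arrays, GCV1 also with quantile normalization (0.048). Of the 350 values of members under other settings, 297 kept both sign and side of the threshold.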
